A study of Mus musculus with 4 samples.

Results

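The cyclin Y genes *Ccnyl1* and *Ccny*, the PFTAIRE kinase gene *Cdk14*, the PCTAIRE kinase genes *Cdk16*, *Cdk17* and *Cdk18*, and *Cdk5* with its activator gene *Cdk5r1* were followed in testes that lack *Ccnyl1*. Members were the probe sets that the platform annotation pairs with exactly 1 gene symbol, that symbol being one of these 8 genes. They numbered 26 of 45037 probe sets, Affymetrix controls left aside, and the 8 genes were among 18193 so annotated. *Ccny* was read by 7 probe sets, *Cdk16* by 5, *Cdk5r1* by 4, *Cdk14* and *Cdk5* by 3 each, *Cdk17* by 2, and *Ccnyl1* and *Cdk18* by 1 each. For each gene the probe set with the highest mean signal over the 4 arrays stood as its main one. No probe set of *Cdk15*, the other PFTAIRE kinase gene, was found in the annotation used here.

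Testis RNA came from 2 *Ccnyl1*-/- mice and 2 WT mice, all of the strain C57BL/6 and 2 months old, which is adult, with no treatment named and 1 Affymetrix array per mouse. The knockout carried the EUCOMM tm1a allele in its KO-first form, in which a LacZ cassette with a stop codon and a polyadenylation signal interrupts the gene. Homozygotes came from heterozygous pairs. Whole testis was used, so that each signal is an average over spermatogonia, spermatocytes, spermatids and somatic cells, in which fewer cells of a type and less RNA per cell cannot be told apart. Signals are MAS 5.0 values, linear intensities without a fixed unit, and those of different probe sets are not compared as levels.

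Cyclins are the regulatory subunits of cyclin-dependent kinases. Cyclin Y and cyclin Y-like 1 sit at membranes and bind the kinases of the PCTAIRE and PFTAIRE branch, which are named after the sequence of the helix that meets the cyclin and which act outside the core cell cycle. CDK14 with cyclin Y phosphorylates the Wnt co-receptor LRP6, and CDK16 is abundant in testis and brain and is needed for male fertility in the mouse. CDK5, a close relative of this branch, is switched on by p35, the product of *Cdk5r1*, rather than by a cyclin, and is best known from neurons. The arrays ask whether the loss of *Ccnyl1* goes along with a change in the transcripts of its paralog or of these kinases.

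*Cdk16* is the kinase partner on which the comparison turns, so the stretch before its gene start is shown. It is the plus strand of GRCm38.p6, chrX:20687704-20687916, 213 bases that end just before the gene. They come from the first of 2 RefSeq promoter windows of *Cdk16*. The second, chrX:20688176-20688475, is not shown. Capitals mark the CCAAT box and the half-site TGACG of the cAMP response element (CRE), on either strand.
*Cdk16* upstream: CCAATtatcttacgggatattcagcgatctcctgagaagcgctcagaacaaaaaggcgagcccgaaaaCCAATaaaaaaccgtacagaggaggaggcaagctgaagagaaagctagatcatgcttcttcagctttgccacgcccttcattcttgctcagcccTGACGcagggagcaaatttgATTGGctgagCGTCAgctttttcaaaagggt
CCAAT was found 3 times, 2 of them on the plus strand, and TGACG 2 times, once on each strand. In the first 213 bases of all 32841 RefSeq promoter windows, 30.2% hold at least 1 CCAAT and 14.3% at least 1 TGACG on either strand. The full element TGACGTCA, which is read by CREM, the activator of many spermatid genes, was not among these letters, and 1.07% of the windows hold it. These matches describe the letters of the window and say nothing of binding. Among the genes followed, only the RefSeq windows of *Ccnyl1*, *Cdk14*, *Cdk16* and *Cdk18* were looked at here. That does not show that the other genes have none.

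*Ccnyl1*, the targeted gene, was lower in *Ccnyl1*-/- testes. Its probe set gave 921 and 969 in the *Ccnyl1*-/- mice, against 2256 and 2425 in the WT mice. The mice of the genotypes lay far apart, while mice of 1 genotype differed by 0.07 (*Ccnyl1*-/-) and 0.10 (WT) on the log2(signal + 16) scale. The mean was 945 ± 34.4 in *Ccnyl1*-/- and 2341 ± 120 in WT testes (SD, n = 2 each). This is -1.29 on the log2 scale (standard error 0.09, 95% interval from -1.50 to -1.09, adjusted p = 0.00463 from limma with Benjamini-Hochberg adjustment). The interval corresponds to 35.4% to 47.0% of the WT value. Of all 32438 probe sets tested, 4 passed, or 0.0123%, each of them lower in *Ccnyl1*-/- testes. *Ccnyl1* had the second smallest p among them. A more negative log2 fold change was seen at 64 probe sets, but at none of the 6575 whose mean signal reached 1000 (0 probe sets). No source used here gives the place of this probe set relative to the cassette, and the signal that stayed in *Ccnyl1*-/- mice does not tell intact transcript from transcript ending at or starting after the cassette. The call depends on a variance estimate that follows the signal, without which the adjusted p from limma was 0.596.

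**Figure D1:**
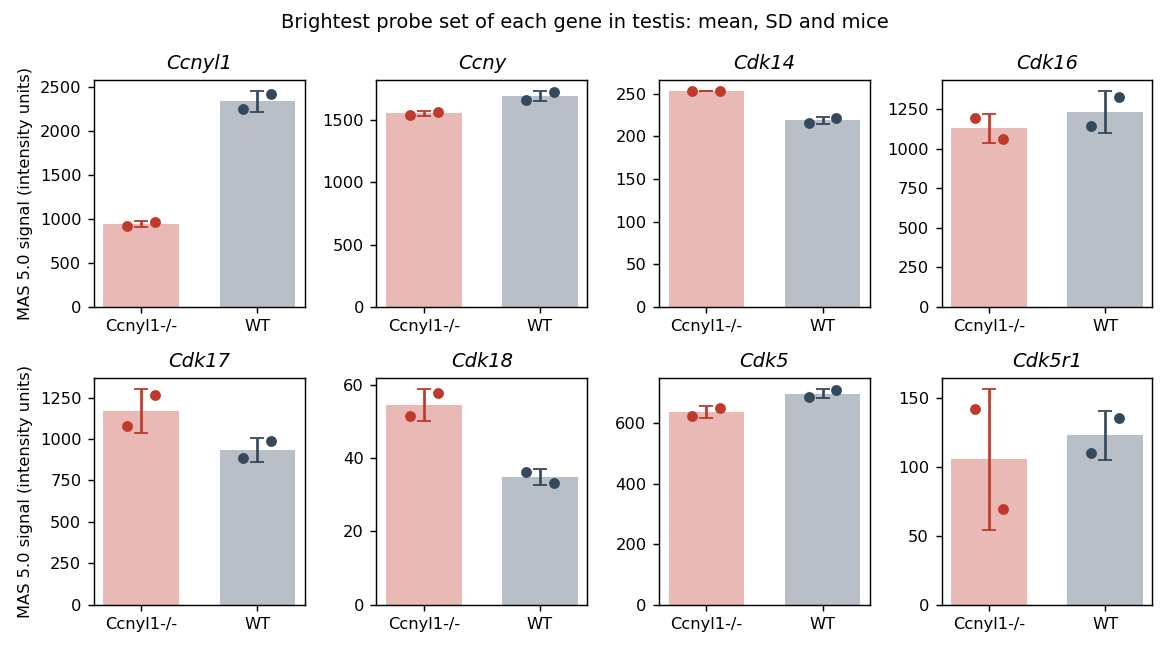
MAS 5.0 signal (intensity units) of the main probe set of each of the 8 genes in *Ccnyl1*-/- and WT testes, with a bar for the mean, an error bar for the SD (n = 2 mice) and a point for each mouse. *Ccnyl1* stands at 945 against 2341, and the other 7 genes show smaller gaps or mice that overlap.

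*Ccny*, the paralog, did not pass the test at any of its 7 probe sets. The main one gave 1538 and 1567 in *Ccnyl1*-/- mice, against 1663 and 1722 in WT mice, so that both *Ccnyl1*-/- mice were lower by a small step. The difference was -0.12 in log2 (standard error 0.08, limma adjusted p = 0.862), with an interval that reaches from 80.6% to 105% of WT. The second brightest probe set had the opposite order, at 727 and 796 in *Ccnyl1*-/- mice, against 692 and 711 in WT mice, a log2 fold change of 0.11. Over the 7 probe sets the log2 fold changes ran from -0.12 to 0.30, with 4 positive and 3 negative. The mice did not overlap at 4 of them, the main one lower in *Ccnyl1*-/- mice and the other 3 higher, and over all probe sets tested 15.3% had both *Ccnyl1*-/- mice below and 20.6% both above the WT mice. The mean over all 7 was 0.07, a sign opposite to that of the main probe set. At the main probe set, a rise of *Ccny* above 105% of WT lies outside the 95% interval. At the probe set with the widest interval the upper bound was 216% of WT.

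The ratio of 2 probe sets within an array depends little on how that array was scaled. The log2 ratio of *Ccnyl1* to *Ccny* was -0.73 and -0.68 in *Ccnyl1*-/- mice, against 0.44 and 0.49 in WT mice, a difference of -1.17. The log2 ratio of *Ccnyl1* to *Cdk16* was -0.37 and -0.13 in *Ccnyl1*-/- mice, against 0.97 and 0.86 in WT mice, also a difference of -1.17. *Ccnyl1* thus moved against both partners by several times the gap between mice of a genotype. The log2 ratio of *Cdk16* to *Ccny* was -0.36 and -0.55 in *Ccnyl1*-/- mice, against -0.53 and -0.37 in WT mice, so that the genotypes overlapped and the means differed by -0.0033. With 1 mouse left out this last difference ran from -0.099 to 0.093. These ratios were chosen after the values were seen, and an exact two-sided permutation test of 2 mice against 2 cannot go below p = 0.333.

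**Figure D2:**
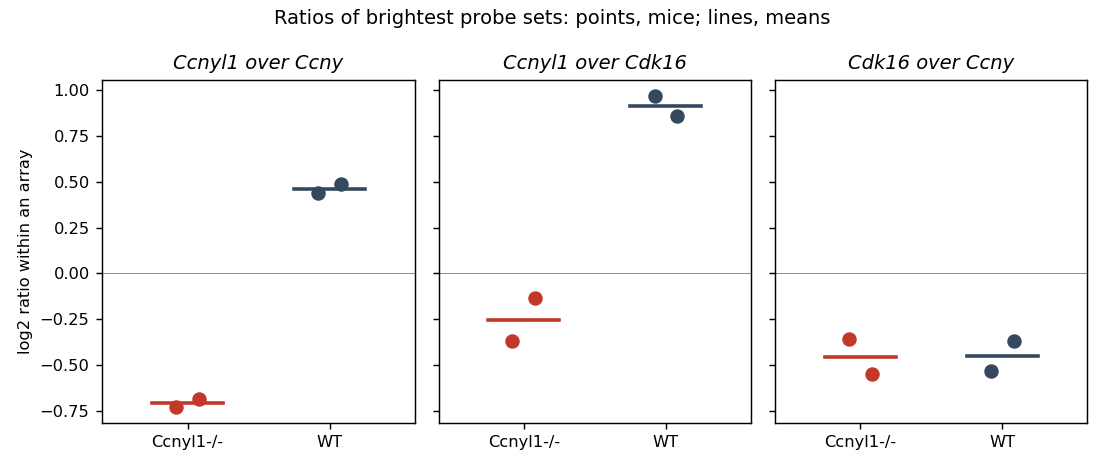
Log2 ratio of the main probe sets of 2 genes within each array for *Ccnyl1*-/- and WT mice, with points for mice and lines for means. The place of a ratio above or below 0 reflects the probes and is not a level. *Ccnyl1* over *Ccny* and *Ccnyl1* over *Cdk16* differ by -1.17 in *Ccnyl1*-/- mice, and *Cdk16* over *Ccny* overlaps.

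*Cdk16* encodes the PCTAIRE kinase that cyclin Y-type subunits activate. Its main probe set gave 1195 and 1065 in *Ccnyl1*-/- mice, against 1143 and 1330 in WT mice. The genotypes overlapped, with *Ccnyl1*-/- replicate 1 above WT replicate 1. The mean was 1130 ± 92.4 in *Ccnyl1*-/- and 1236 ± 132 in WT testes (SD, n = 2 each), or -0.13 in log2 (standard error 0.11, limma adjusted p = 0.894). The interval runs from 76.7% to 109% of WT, so a fall to the level that *Ccnyl1* itself showed lies outside it. A second, almost equally bright probe set gave 1149 and 1116 in *Ccnyl1*-/- mice, against 1263 and 1131 in WT mice, a log2 fold change of -0.08 with an interval from 81.1% to 111% of WT. Another gave 389 and 304 in *Ccnyl1*-/- mice, against 366 and 513 in WT mice, and had the largest difference of the gene, -0.32 (adjusted p = 0.855 from limma). All 4 tested probe sets of *Cdk16* had negative log2 fold changes, as deposited, after quantile normalization and with arrays scaled to one median, and at each of them the mice of the genotypes overlapped. The fifth, with a mean signal of 27.7, was below the minimum signal of 32. Without 1 mouse the main value ran from -0.23 to -0.02. The sign turned at the dimmest tested probe set, to 0.31 without *Ccnyl1*-/- replicate 2 and 0.15 without WT replicate 2. At the second brightest it turned to 0.0027 without WT replicate 1.

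*Cdk17*, another PCTAIRE kinase gene, was the one member besides *Ccnyl1* with an unadjusted p under 0.05 in the limma fit reported. Its main probe set gave 1077 and 1265 in *Ccnyl1*-/- mice, against 883 and 985 in WT mice. Both *Ccnyl1*-/- mice were higher. The nearest mice of the 2 genotypes, at 1077 and 985, lay closer together than the 2 mice of either genotype. The difference was 0.32 in log2 (standard error 0.12, limma unadjusted p = 0.0238, adjusted p = 0.783), an interval from 104% to 150% of WT before adjustment. The dimmer probe set gave 150 and 161 in *Ccnyl1*-/- mice, against 155 and 64.0 in WT mice, so that its log2 fold change of 0.55 came from 1 WT mouse. Over all probe sets tested, 6.05% had an unadjusted p under 0.05, against 2 of the 22 tested probe sets of these genes. Which members fell under 0.05 depended on the test. At main probe sets the methods' t-test gave an unadjusted p of 0.147 for *Cdk17*, 0.0075 for *Cdk14*, 0.0258 for *Cdk18* and 0.0496 for *Ccny*. Limma without the trend gave an unadjusted p of 0.0936 for *Cdk17* and 0.0174 for *Cdk18*. *Cdk17* did not pass after adjustment under any alternative, where the adjusted p from limma or the methods' t-test ran from 0.487 to 0.895.

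*Cdk18*, the remaining PCTAIRE kinase gene, was read by 1 dim probe set. It gave 51.3 and 57.6 in *Ccnyl1*-/- mice, against 36.3 and 33.3 in WT mice. The mice did not overlap, yet at this brightness the log2 difference of 0.47 had a standard error of 0.36 (limma adjusted p = 0.878) and an interval from 78.0% to 246% of WT. Its size depends on the offset, since the same signals gave 0.64 with no offset.

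*Cdk14* encodes the PFTAIRE kinase of the LRP6 step. Its main probe set gave 253 and 254 in *Ccnyl1*-/- mice, against 216 and 222 in WT mice, higher in both *Ccnyl1*-/- mice. The difference was 0.20 in log2 (standard error 0.16, limma adjusted p = 0.880), with an interval from 89.4% to 147% of WT. The dimmer probe sets went opposite ways, at 0.94 and -0.70, and both rested on mice that differed within a genotype. In the first, the *Ccnyl1*-/- mice had 72.3 and 80.3, while 1 WT mouse had 8.77 and the other 76.9. In the second, the *Ccnyl1*-/- mice had 46.1 and 8.0, against 33.1 and 64.5 in WT mice. Their intervals were the widest among the members, the first reaching from 77.4% to 477% of WT.

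*Cdk5* gave 623 and 651 in *Ccnyl1*-/- mice, against 688 and 710 in WT mice, at its main probe set. Both *Ccnyl1*-/- mice were lower, by -0.13 in log2 (standard error 0.11, limma adjusted p = 0.890), with an interval from 76.7% to 109% of WT. The other tested probe set had 0.23 with mice that overlapped, so that the mean over both was 0.05. A dimmer one, with a mean signal of 20.3, was not tested.

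*Cdk5r1*, the p35 gene, had mean signals from 10.3 to 114 at its 4 probe sets. Its main probe set gave 142 and 69.6 in *Ccnyl1*-/- mice, against 110 and 136 in WT mice, and both WT mice lay between the *Ccnyl1*-/- mice. The difference was -0.25 in log2 (standard error 0.31, limma adjusted p = 0.924), and its sign turned to 0.19 without *Ccnyl1*-/- replicate 2. The second probe set had -0.16. Another, below the minimum signal, gave 6.20 and 5.91 in *Ccnyl1*-/- mice, against 42.5 and 29.8 in WT mice, without overlap. With no minimum signal it stood at -1.23 in log2 without passing (limma adjusted p = 0.829). No detection calls were used, so whether such low values lie above background is unknown.

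**Figure D3:**
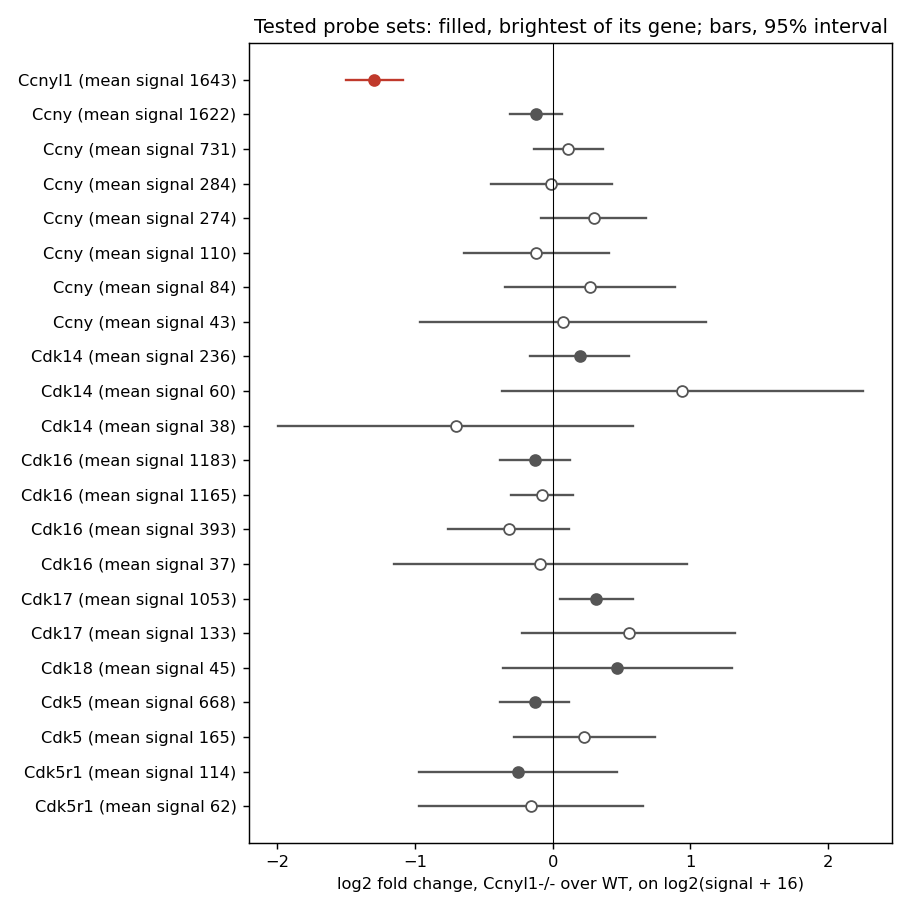
Log2 fold change (*Ccnyl1*-/- over WT), on log2(signal + 16), for the 22 tested probe sets of the 8 genes, with 95% intervals from limma and the mean signal over the 4 arrays beside each gene. Filled points are main probe sets. *Ccnyl1*, in red, is the only one past the adjusted threshold, and bars lengthen as the signal falls.

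Of the 26 probe sets, 22 reached the minimum signal and were tested. Besides *Ccnyl1*, 0 of the 21 others passed after adjustment, with 10 positive and 11 negative log2 fold changes and a median of -0.0095, against 0.022 over all probe sets tested. An unadjusted p under 0.05 in the limma fit reported was seen at 1 of these 21. Signals of *Ccnyl1*-/- and WT mice were apart, without overlap, at 8 of the 21 (6 higher and 2 lower in *Ccnyl1*-/-), and at 35.9% of all probe sets tested. How closely a change was bounded followed the brightness. Among the 14 other probe sets with a mean signal of at least 100, 13 had a 95% interval within 2-fold either way, and 2 of the 7 dimmer ones had. The share was 96.0% over all tested probe sets of that brightness and 75.8% over all probe sets tested. The bright one with a wider interval was the dimmer probe set of *Cdk17*, from 85.8% to 251% of WT. At 5 of the 7 dim probe sets a change beyond 2-fold thus lay within the interval.

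**Figure D4:**
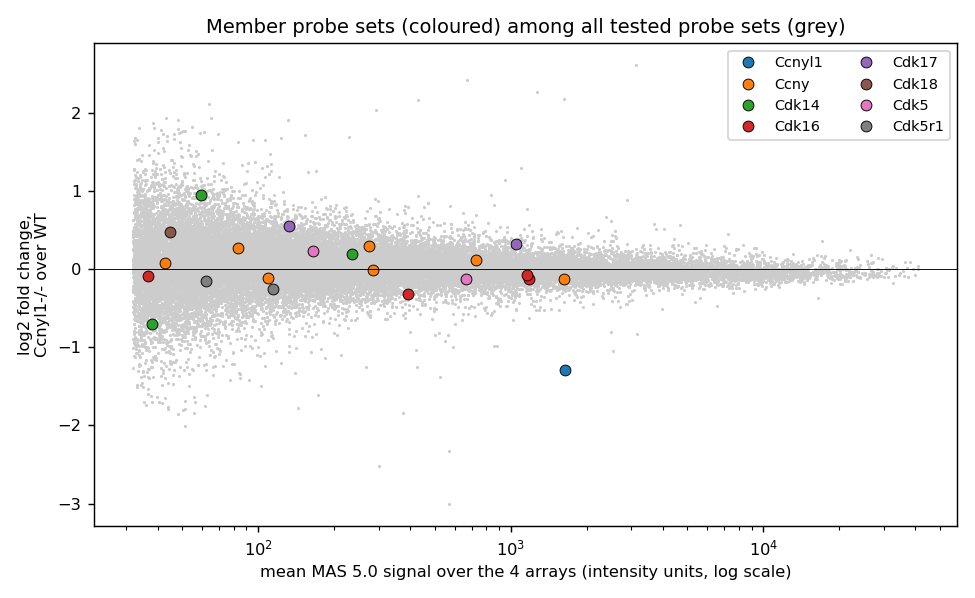
Difference of *Ccnyl1*-/- and WT testes (log2 fold change, vertical) plotted by mean MAS 5.0 signal (log scale, horizontal), with all 32438 tested probe sets in grey and the 22 of the 8 genes in colour. *Ccnyl1* lies at -1.29, below the cloud at its brightness, and the other probe sets lie within it.

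Among genes outside the group, those nearest to *Ccnyl1* over the 4 arrays were sought by the root mean square difference of centred log2 values, over 11831 genes whose mean signal reached 100. *Ptpn6* on chromosome 6, which encodes the tyrosine phosphatase SHP-1, was first at 0.11, with 56.7 and 60.8 in *Ccnyl1*-/- mice, against 150 and 140 in WT mice. Its other probe set had a log2 fold change of 0.39, opposite in sign. *Fam83e* on chromosome 7, of a family that anchors casein kinase 1, was second at 0.12, with 1597 and 1698 in *Ccnyl1*-/- mice, against 3315 and 3538 in WT mice. *Ntn5* on chromosome 7, a netrin family gene, was next at 0.18, with 328 and 242 in *Ccnyl1*-/- mice, against 722 and 804 in WT mice, or -1.38 in log2, without passing (limma adjusted p = 0.118). *Fam83e* passed the test at this probe set (adjusted p = 0.00503 from limma), and *Ptpn6* did not (adjusted p = 0.645 from limma). Likeness over 4 arrays amounts to a difference between the genotypes of about the same size.

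**Figure D5:**
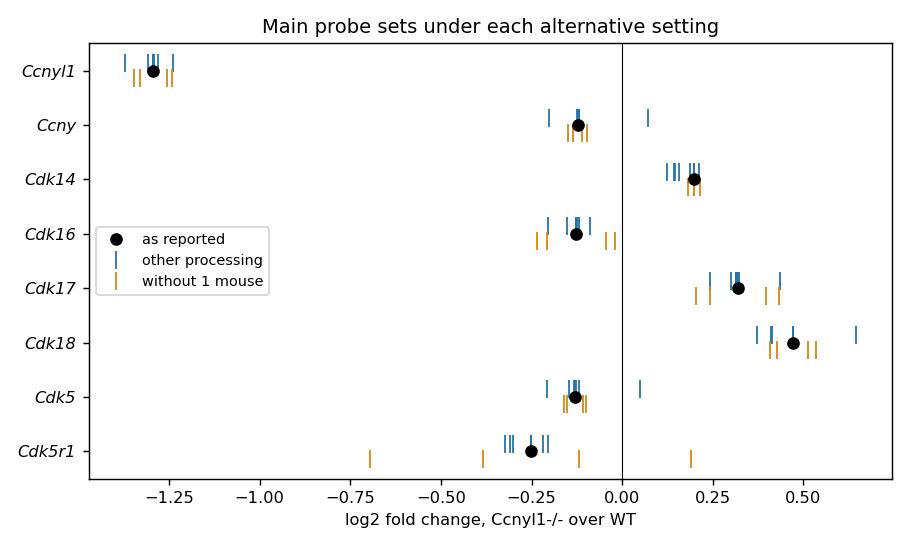
Log2 fold change (*Ccnyl1*-/- over WT) at the main probe set of each gene as reported (black), under other processing (blue) and without 1 mouse (orange). *Ccnyl1* stayed between -1.37 and -1.24, and marks on both sides of 0 are seen for *Ccny*, *Cdk5* and *Cdk5r1*.

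Genes that act with these cyclins and kinases gave no call. The list of partners and regulators held protein kinase A, which phosphorylates CDK16, the 14-3-3 proteins that bind the phosphorylated forms, N-myristoyltransferases, NSF and SEC23, LRP5 and LRP6, and others. Of its 25 genes 23 were tested and 0 passed, with 14 values above 0 and 9 below, and 0 had an unadjusted p under 0.05. The methods' t-test called 0 probe sets on the whole array after adjustment. The median of the 23 tested genes was 0.06, against -0.00036 over the 15268 genes tested. With arrays scaled to one median it was -0.02. That scaling also moved the median over all probe sets tested, from 0.022 to -0.051. *Cdkn1b*, which encodes the Cdk inhibitor p27, had the largest difference, with 222 and 176 in *Ccnyl1*-/- mice, against 166 and 131 in WT mice, or 0.39 in log2 (limma adjusted p = 0.840). *Lrp6*, the Wnt co-receptor, followed at 0.34 (adjusted p = 0.847 from limma), with 161 and 160 in *Ccnyl1*-/- mice, against 130 and 116 in WT mice. Both had the *Ccnyl1*-/- mice above the WT mice.

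Of the 6 genes listed as activators or associated proteins of CDK5, 5 were tested and 0 passed in limma, with 0 at an unadjusted p under 0.05. *Cables1*, which encodes a protein that links CDK5 to the kinase ABL, had 0.42 and was dim, with 91.5 and 57.9 in *Ccnyl1*-/- mice, against 50.7 and 50.2 in WT mice. *Cdk5rap2*, a centrosome gene, had -0.10. The median was -0.06 and turned to 0.06 without *Ccnyl1*-/- replicate 1. Of 24 other cyclins tested in limma, 0 passed and 2 had an unadjusted p under 0.05, against 6.29% of all 15268 genes. These were *Ccni* and *Ccnd3*, both lower in *Ccnyl1*-/- mice and both named for that. The median of these cyclins was 0.05, which turned to -0.02 with arrays scaled to one median. *Ccnb3*, a cyclin of meiosis, had 0.37 and *Ccno*, known from multiciliated cells, had 0.29. Of 18 other Cdks, 0 passed in limma, 0 had an unadjusted p under 0.05, and the median was 0.06, with the same turn to -0.02. In that setting the median over all probe sets tested was -0.051. The farthest were *Cdk3* at -0.34 and *Cdkl1* at 0.22.

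The global scaling by the authors sets the trimmed mean of every array to one value. Over the probe sets tested, the arrays had medians of 209 and 203 in *Ccnyl1*-/- mice, against 199 and 197 in WT mice, slightly higher in both *Ccnyl1*-/- mice. Log2 signals of 2 arrays correlated across probe sets with r between 0.977 and 0.980, in which probe sets are not independent replicates. Markers of round and elongating spermatids, which define testis, were bright in all 4 mice. Some markers of earlier germ cells were dim, such as *Ret* at a mean signal of 37.2 and *H1f6* at 86.0. Of 67 markers tested in 12 cell type lists, 0 passed in limma. An unadjusted p under 0.05 was seen at 9 of them, or 13.4%, against 6.29% of all 15268 genes. Many markers are bright, and 657 of the 6575 probe sets with a mean signal of at least 1000 had such a p. The 6.29% is thus not matched for brightness. Single probe sets separated the genotypes without overlap at 35.9% of all tested, and no such share was computed for sums. The summed signals of a list separated the genotypes without overlap in 6 of the 12 lists, higher in *Ccnyl1*-/- mice in 3 and lower in 3. The higher ones were spermatogonia, with 6346 and 6317 in *Ccnyl1*-/- mice, against 6001 and 5747 in WT mice, spermatocytes, with 60444 and 60589 in *Ccnyl1*-/- mice, against 58115 and 59917 in WT mice, and peritubular myoid cells, with 3405 and 3015 in *Ccnyl1*-/- mice, against 2969 and 2786 in WT mice. The lower ones were round spermatids, with 77247 and 75373 in *Ccnyl1*-/- mice, against 81141 and 78880 in WT mice, Sertoli cells, with 19313 and 18930 in *Ccnyl1*-/- mice, against 19401 and 20291 in WT mice, and macrophages, with 2845 and 2497 in *Ccnyl1*-/- mice, against 3834 and 2882 in WT mice. These sums rest mostly on the brightest markers of each list. For Sertoli cells this was *Clu*, with 15989 and 15661 in *Ccnyl1*-/- mice, against 16361 and 17332 in WT mice. Yet 6 of the 8 Sertoli markers had positive log2 fold changes, with a median of 0.15. The brightest spermatogonia marker was *Dazl*, with 4165 and 4363 in *Ccnyl1*-/- mice, against 3945 and 3743 in WT mice. Among myoid markers *Acta2* led, with 2474 and 2283 in *Ccnyl1*-/- mice, against 2277 and 2031 in WT mice. Elongating spermatid markers summed to 236060 and 226732 in *Ccnyl1*-/- mice, against 229069 and 234723 in WT mice, with overlap. The summed signal of 4 Leydig cell markers was 8883 and 4946 in *Ccnyl1*-/- mice, against 6741 and 3708 in WT mice, so that the genotypes overlapped. For neurons, in which CDK5 and the PCTAIRE kinases are abundant, 3 of 5 markers were tested, with a summed signal of 340 and 168 in *Ccnyl1*-/- mice, against 243 and 146 in WT mice. The 2 defining markers *Snap25* and *Nefl* lay under the minimum signal. The part of these cells in the members' values was not tested.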

How the data were processed

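RNA from the testes of 2 *Ccnyl1*-/- and 2 WT mice was hybridised by the authors to 1 GeneChip Mouse Genome array per mouse. The deposited intensities are MAS 5.0 signals on a linear scale, made by the authors with default settings and global scaling (the submitters' processing notes name MAS5). The table has 45101 probe sets, 64 of them controls that were left out, and 0 columns of other samples. The trimmed mean of the arrays in the table was not the scaling target stated in the methods, and the signals were used as deposited.

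Log2(signal + 16) was fitted in R 4.3.3 with limma 3.58.1 (lmFit, eBayes with a trend), genotype alone, over the 32438 probe sets with a mean signal of at least 32, with Benjamini-Hochberg adjustment over all of them, threshold 0.05. Fold changes on this scale understate those of dim probe sets. Replicates of a genotype are marked as biological in the labels, and the number of arrays limits the precision. The fit was tested on data simulated from its own variance trend, which cannot check whether that trend holds. Members and lists were chosen with earlier results of these data known. Named genes are the 8 members, the 2 farthest of each pathway, cyclin and Cdk list, and the 3 nearest to *Ccnyl1*, by the rule given there. The genes of the marker lists named were chosen after their values were seen. Alternatives changed the offset, the minimum signal, the normalization, the variance estimate, the test, the probe set chosen, the replicate number as a block and the mice included. The within-array ratios and the list medians under these alternatives were added after the data were seen. The labels do not say whether same-numbered mice were paired. Deviations of same-numbered mice correlated at 0.014 over all probe sets tested, which cannot show that the mice were unpaired. Sequences are from RefSeq, GRCm38.p6.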

Additional observations from a re-analysis of the deposited data

How the results depend on the processing

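The 4 probe sets past the test in the fit reported were also called with no offset, an offset of 32, an offset of 80 with a minimum signal of 160, no minimum signal, a minimum of 100 and quantile normalization, where the count stayed at 4, and with robust eBayes, where it was 5. With arrays scaled to one median 7 probe sets passed, and 0 passed without the trend of the variance and with the methods' t-test, where 1906 and 1900 had an unadjusted p under 0.05. Without 1 mouse the count ran from 6 to 55, with the same 4 among them each time: 46 without WT replicate 1, 55 without WT replicate 2, 7 without *Ccnyl1*-/- replicate 1 and 6 without *Ccnyl1*-/- replicate 2. Each of these fits rests on a genotype with 1 mouse, which is assumed to vary like the other. With the replicate number as a block 14 probe sets passed, 4 higher and 10 lower, the same 4 among them, and the call of each member's main probe set was as reported.

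*Ccnyl1* kept its direction under all 15 alternatives and its call under 13, and with the same log2 fold change of -1.29 it did not pass without the trend (adjusted p = 0.596 from limma) or with the methods' t-test (adjusted p = 0.723). The sign turned for *Ccny* (0.072) and *Cdk5* (0.0498) with the mean of all tested probe sets, and for *Cdk5r1* (0.19) without *Ccnyl1*-/- replicate 2. The log2 fold changes without 1 mouse ran from -1.35 to -1.24 for *Ccnyl1*, -0.15 to -0.098 for *Ccny*, 0.18 to 0.22 for *Cdk14*, -0.23 to -0.02 for *Cdk16*, 0.20 to 0.43 for *Cdk17*, 0.41 to 0.54 for *Cdk18*, -0.16 to -0.10 for *Cdk5* and -0.69 to 0.19 for *Cdk5r1*. The causes of these changes were not tested. Signals near the minimum limit what can be said of *Cdk18* and the dim probe sets of *Cdk14*, *Cdk16*, *Ccny* and *Cdk5r1*. The main probe set of *Cdk5r1* had a mean signal of 114, and its 2 *Ccnyl1*-/- mice lay far apart, at 142 and 69.6.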
